A study of Astatotilapia calliptera and Haplochromis burtoni and Pundamilia nyererei with 40 samples.

Results

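The egg coat zona pellucida (ZP) genes were the genes whose symbol in the Astatotilapia calliptera (AC) gene table began with zp2, zp3, zp4, zpax, zpcx or zpd. This rule found 8 of 26977 genes, of which 16908 carried a symbol. The members were 1 gene of the zp2 type (zp2l2), 5 of the zp3 type (zp3b, zp3c, zp3d.2, zp3f.1 and zp3f.2) and 2 of the zpax type (zpax1 and zpax4). No symbol of the zp4, zpcx or zpd type was found, and a coat gene that the table left without a symbol could not be found this way. The other 3 symbols that start with zp (zpr1, zpld1a and zpld1b) were not members.

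ZP genes encode the secreted glycoproteins that assemble into the extracellular coat of the vertebrate egg, called the zona pellucida in mammals and the chorion or egg envelope in fishes. Each protein carries a ZP domain, a polymerisation module that lets the subunits join into filaments once a proprotein convertase has cut the chain near its end. In mouse the growing oocyte makes the coat proteins and sperm bind to the finished coat. In fishes some coat proteins are made in the oocyte itself and others in the liver of females, which releases them into the blood.

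The study measured polyadenylated RNA of gonads and brains in East African cichlids, as part of work on transposable elements and the small RNAs that silence them. The values used here come from AC ovaries (4 libraries), from testes of Tropheops sp. 'mauve' (TM, 4 libraries), Maylandia zebra (MZ, 2 libraries) and AC (4 libraries), and from AC male brains (3 libraries) and AC female brains (3 libraries). The 3 species are Lake Malawi cichlids. All fish were wild type, and the labels name no treatment. AC and TM were kept in aquaria, while the study describes the MZ fish as captive-bred, dominant adult males bought from a supplier. The labels give no ages. The study describes its replicates as biological, with tissue taken from size-matched fish of a species. The labels number the libraries of a group without naming the fish, and p-values measure the spread between these libraries. A sequencing company made these gonad libraries, and the study names no kit for them. AC brain libraries were prepared separately, with a kit that the study names. Tissue and library preparation therefore cannot be told apart in the comparisons with brain. Reads of all 3 species were mapped to the AC genome, so a difference between species and a difference in mapping cannot be told apart. For MZ, species and the source of the fish cannot be told apart either.

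The gonad libraries were checked against markers of the cells they could hold. Transcript levels in TPM, a unit corrected for gene length and depth, were summed over 10 genes of male germ cells and sperm, giving 12.3 to 40.1 TPM in ovaries against 465 to 2971 TPM in testes. Over 5 follicle cell genes (of 12 looked for) the sums were 128 to 711 TPM in ovaries and 57.1 to 72.9 TPM in testes. Among these, cyp19a1a, which encodes the aromatase that makes oestrogen, had 51.8 to 433 TPM in ovaries against 0.0803 to 0.696 TPM in testes. The list was not summed without cyp19a1a. The meiotic gene sycp1 reached at most 0.204 TPM in ovaries and had 68.1 to 381 TPM in testes. These markers therefore placed the libraries with their labels. The oocyte list did not separate them, since 12 genes of it (of 22 looked for) summed to 6005 to 8930 TPM in ovaries and 5782 to 8661 TPM in testes, against 82.4 to 113 TPM in male brains and 49.9 to 102 TPM in female brains. Among them, zar1, an oocyte gene needed for early development in mouse, had 1441, 1180, 2038 and 1948 TPM in ovaries and 1855, 2328, 1327 and 2333 TPM in testes. The AC testes libraries thus carried RNA of oocyte marker genes at about the level of the ovaries, beside RNA of male germ cells, and the source of that RNA was not tested. AC ovary library 1 stood apart from the other ovaries. Its TMM normalisation factor, edgeR's correction for the make-up of a library, was 0.544, beside 0.947 to 1.12 in the other 13 AC libraries, and the oocyte gene cpeb1b stood at 12.3 TPM in it, beside 540, 700 and 762 TPM. Of the liver genes, the fibrinogen genes fga, fgb and fgg stayed at or below 0.144 TPM in ovaries and 0.484 TPM in testes, while the transferrin gene tfa, which is not specific to liver, had 22.4 to 69.1 TPM in ovaries and 241 to 395 TPM in testes.

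ZP genes were among the most abundant transcripts of both gonads and were near the limit of detection in brain. The 8 genes together took up 16576, 13245, 21036 and 20548 TPM in ovary libraries 1 to 4 and 21862, 21473, 14056 and 25693 TPM in testes libraries 1 to 4. The libraries of both gonads overlapped, with means of 17851 TPM in ovaries and 20771 TPM in testes. They made up 1.32% to 2.10% of all TPM in ovaries and 1.41% to 2.57% in testes. In brain the sum was 11.1, 23.8 and 12.5 TPM in males and 8.31, 7.56 and 13.1 TPM in females. Ranked by TPM among the 26977 genes within each gonad library, the members held places between 10 (zp3f.1 in an ovary library) and 663 (zp3d.2 in a testes library). In bulk tissue, a difference in the number of cells of a type and a difference in RNA per cell cannot be told apart.

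The zp3 type, whose mouse namesake is one of the coat's main filament subunits, had the largest share of ZP TPM on average. Its most abundant member, zp3f.1, had 3851, 2840, 5200 and 4819 TPM in ovaries and 3802, 3812, 2584 and 4498 TPM in testes. zp3c had 2576, 2386, 3516 and 3803 TPM in ovaries and 3462, 3761, 2425 and 4333 TPM in testes. For both genes the ranges of ovary and testes libraries overlapped. zp3f.2 had 437, 1856, 2613 and 1648 TPM in ovaries and 2792, 2553, 1956 and 3321 TPM in testes. Ovary library 1 stood lowest for this gene, and ovary library 3 lay within the testes range. zp3b had 404, 514, 636 and 704 TPM in ovaries and 495, 518, 407 and 569 TPM in testes. zp3d.2 had 868, 320, 396 and 463 TPM in ovaries and 265, 310, 234 and 336 TPM in testes. These were the least abundant members, and for zp3d.2 a single testes library (336 TPM) passed the lowest ovary library (320 TPM).

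The zpax type, known from fishes, amphibians and birds, had both members at similar levels. zpax4 had 2591, 1847, 3279 and 3327 TPM in ovaries and 4137, 3672, 2290 and 4592 TPM in testes. zpax1 had 2352, 2005, 2866 and 3213 TPM in ovaries and 3831, 3889, 2451 and 4552 TPM in testes. Testes library 3 was the lowest of the testes for both genes and lay inside the ovary range. The zp2-type gene zp2l2 had 3496, 1477, 2531 and 2572 TPM in ovaries and 3077, 2959, 1709 and 3493 TPM in testes, which overlapped throughout. In mouse, the zp2 protein is the coat component to which sperm bind.

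**Figure D1:**
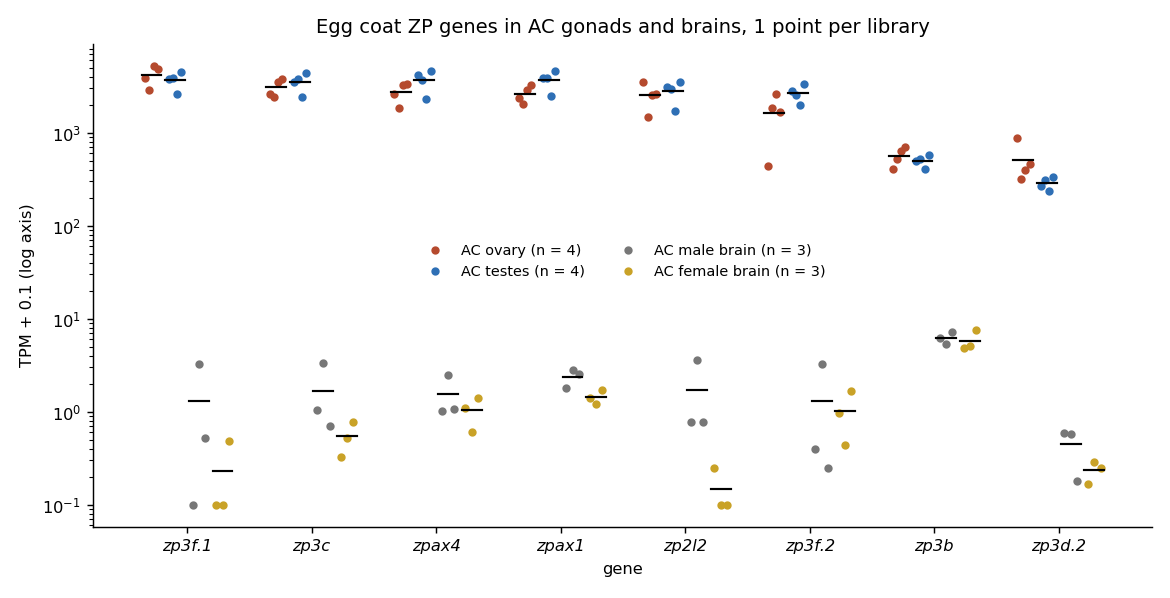
TPM + 0.1 of each ZP gene on a log axis, with 1 point for each of the 14 AC libraries and a bar at each group mean. Ovary and testes points overlap for all 8 genes and lie at or above 234 TPM, while brain points reach at most 7.41 TPM, for zp3b.

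By mean TPM, the order in ovaries was zp3f.1 (4178 ± 1057 TPM, SD, n = 4), zp3c (3070 ± 695), zpax4 (2761 ± 696), zpax1 (2609 ± 536), zp2l2 (2519 ± 825), zp3f.2 (1638 ± 902), zp3b (565 ± 133) and zp3d.2 (512 ± 245). Neighbours in that order differed by more than the larger of their SDs at 2 places, between zp3f.1 and zp3c (1107 TPM) and between zp3f.2 and zp3b (1074 TPM). In testes the order was zpax1 (3681 ± 883 TPM, SD, n = 4), zp3f.1 (3674 ± 796), zpax4 (3672 ± 995), zp3c (3495 ± 800), zp2l2 (2810 ± 769), zp3f.2 (2655 ± 566), zp3b (497 ± 67.6) and zp3d.2 (286 ± 45.3). The neighbours that differed by more than the larger SD were zp3f.2 and zp3b (2158 TPM) and zp3b and zp3d.2 (211 TPM). The first 4 genes of the testes order could not be ranked against each other.

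Of the 8 genes, 3 could be matched by symbol to RefSeq on assembly fAstCal1.2. They lie on 3 chromosomes, zp3c on chromosome 6 (9037443 to 9040184), zp3d.2 on chromosome 11 (34241213 to 34250395) and zpax1 on chromosome 15 (12135319 to 12140055). The coordinates span whole genes, and the values are summed over each gene's transcripts.

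The comparison of ovary with testes asked whether the coat genes differ between the sexes' gonads. Expected counts from Salmon were tested with edgeR's quasi-likelihood test over all 20893 genes that passed the filter on low counts, with Benjamini-Hochberg adjustment, and all 8 ZP genes passed that filter. At an adjusted p under 0.05, 1 of 8 ZP genes was called, against 30.4% of all genes tested (14.2% higher and 16.2% lower in ovaries). The called gene was zp3d.2, higher in ovaries by 1.36 on the log2 scale (SE 0.47, 95% CI 0.35 to 2.36, adjusted p = 0.0416). The median log2 difference over the 8 genes was 0.46, beside -0.02 over all genes tested. The other 7 differences ran from -0.53 (SE 0.49, adjusted p = 0.446) for zp3f.2 to 0.68 (SE 0.63, adjusted p = 0.445) for zp2l2. zpax1 and zpax4 gave -0.03 (SE 0.36) and 0.00 (SE 0.41).

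The call for zp3d.2 depended on single libraries. Without ovary library 1 the difference was 0.49 (adjusted p = 0.117), and the call was also lost without any one of the testes libraries, where the difference ran from 1.24 to 1.47. With ovary library 1 left out, 3 of 8 ZP genes had positive differences, against 6 of 8 with it. In the authors' other count table, made with TEtranscripts on STAR alignments, 0 of 8 genes were called by edgeR (22.8% of 18788 features were), 1 of 8 had an unadjusted p under 0.05, and DESeq2 also called 0. There zp3d.2 was higher in ovaries by 1.32 (SE 0.53, unadjusted p = 0.0333, adjusted p = 0.103).

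**Figure D2:**
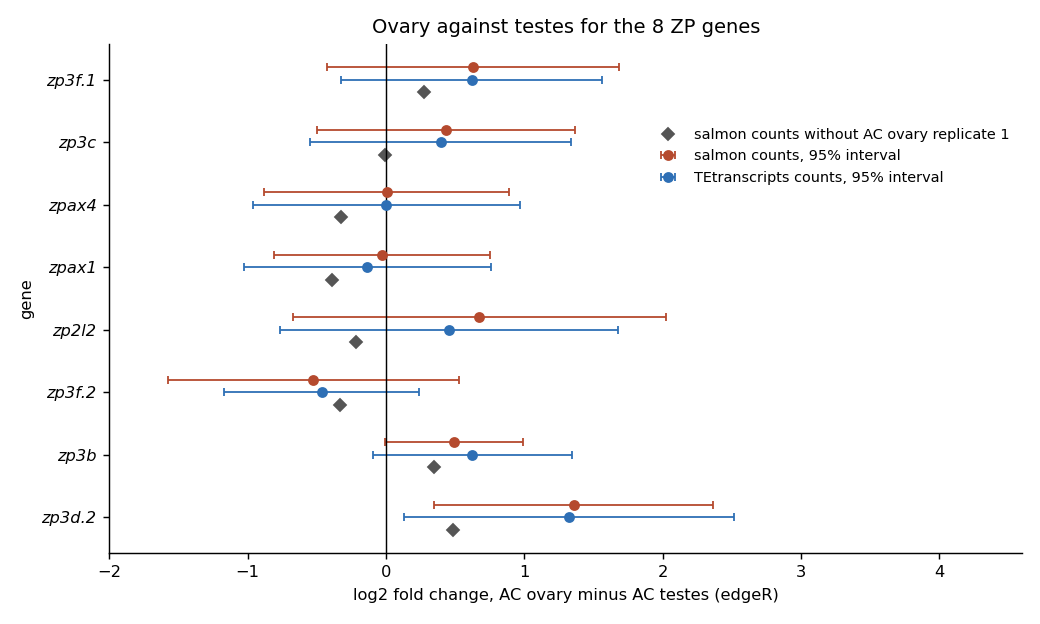
Log2 difference of ovary minus testes for each ZP gene from both count tables (circles, with 95% confidence intervals), and from the Salmon counts without ovary library 1 (diamonds). Intervals of zp3d.2 lie above 0 and those of the other 7 genes reach across it, and the diamonds lie below the circles except for zp3f.2.

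Relative to each other, some ZP genes took different shares in ovaries and testes. This measure, each gene's share of the summed ZP TPM of a library, was chosen after the values were seen, and since shares add up to the whole, the genes are not independent of each other. The sum is made of the ZP genes, so scaling by it takes out spread that they share, but not that of other genes. The percentages over all genes given beside shares are therefore not a like background. zp3f.1 supplied 23.2%, 21.4%, 24.7% and 23.5% of the ZP TPM in ovaries and 17.4%, 17.8%, 18.4% and 17.5% in testes. zpax1 supplied 14.2%, 15.1%, 13.6% and 15.6% in ovaries and 17.5%, 18.1%, 17.4% and 17.7% in testes. For both genes the groups did not overlap, zp3f.1 lying above and zpax1 below in ovaries. zpax4 also lay below, with 15.6%, 13.9%, 15.6% and 16.2% in ovaries and 18.9%, 17.1%, 16.3% and 17.9% in testes, and zp3d.2 lay above, with 5.24%, 2.41%, 1.88% and 2.25% in ovaries and 1.21%, 1.44%, 1.66% and 1.31% in testes. In all, 4 of 8 genes had shares that did not overlap, against 17.5% of all 20893 genes scaled to the same sum, while on plain TPM 0 of 8 genes did, against 27.8% (without ovary library 1, 0 of 8 against 39.8%).

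**Figure D3:**
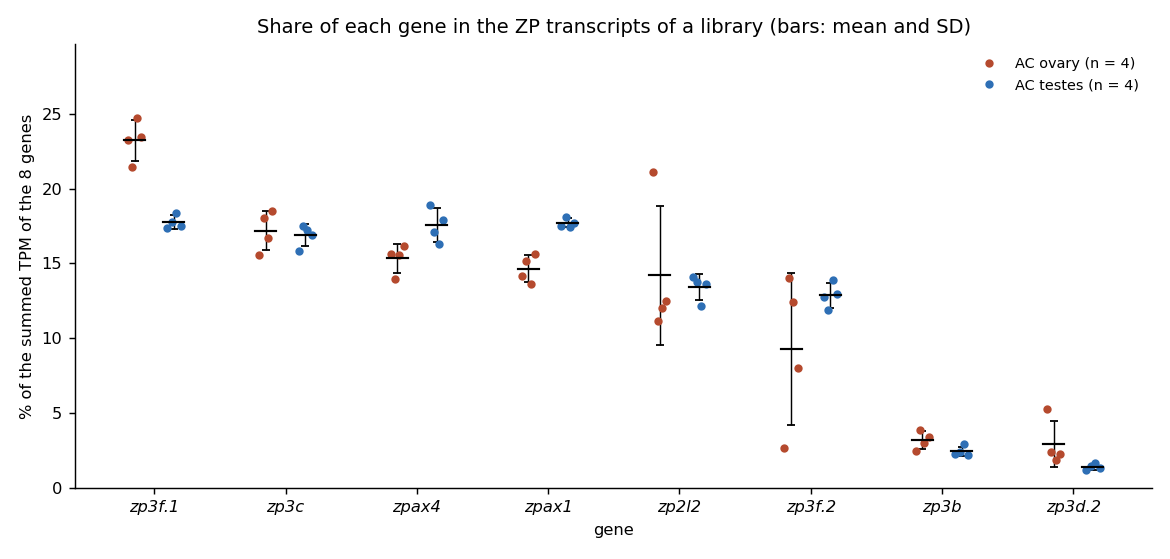
Share of the summed ZP TPM (percent) taken by each ZP gene, with 1 point for each AC ovary and testes library and bars for the mean and SD. The zp3f.1 points span 21.4% to 24.7% in ovaries and 17.4% to 18.4% in testes, and ovary library 1 stands apart from the other ovaries in zp2l2 (21.1%) and zp3f.2 (2.63%).

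By type, the zp3 genes made up 55.8% of the ZP TPM in ovaries and 51.4% in testes on average, the zpax genes 29.98% and 35.2%, and zp2l2 14.2% and 13.4%. The zp3 share was as low as 49.1% in an ovary library (library 1) and 49.5% in a testes library. In TEtranscripts counts, which are not corrected for gene length, the zp3 genes averaged 35.6% in ovaries and 30.4% in testes, below the zpax genes at 45.8% in ovaries and 52.9% in testes. The shares of single genes were also computed from the TEtranscripts counts, where 5 of 8 genes did not overlap (17.6% of 18788 features did not). There zp3f.1 (12.4% to 14.3% of ZP counts in ovaries, 9.41% to 10.3% in testes), zp3d.2 (2.01% to 4.27% in ovaries, 1.25% to 1.74% in testes), zp3b (2.49% to 3.19% in ovaries, 1.80% to 2.37% in testes) and zp3c (10.6% to 11.7% in ovaries, 9.02% to 10.1% in testes) lay above in ovaries. zpax1 lay below, with 20.9% to 26.7% in ovaries and 28.8% to 29.6% in testes, while zpax4 overlapped at 19.7% to 22.9% in ovaries and 22.5% to 25.3% in testes. Without ovary library 1, 5 of 8 genes did not overlap in TPM shares (24.5% of all genes) and 5 of 8 in count shares (26.0%).

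Against brain, the ZP genes were higher in both gonads without exception. In ovaries 8 of 8 genes were higher than in female brains (32.4% of all genes were), with adjusted p of edgeR between 2.12e-09 and 2.14e-07. In testes 8 of 8 genes were higher than in male brains (32.5% of all genes were), with adjusted p between 4.44e-09 and 1.50e-06. The median log2 difference of the 8 genes was 12.62 in the female comparison, beside -0.07 over all genes, and 10.99 in the male comparison, beside 0.03. Both counts stayed at 8 under each alternative run. The filter on low counts ran over all AC libraries, gonads included. With the brain groups fitted alone, 2 of the 8 members passed it. The others entered these tests through the gonads in which they are high, so these p-values add little to the levels given above.

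The smallest gap was that of zp3b, by 7.25 for ovary over female brain and 6.60 for testes over male brain on the log2 scale. It was also the member with the highest level in each brain library, with 6.07, 5.23 and 7.18 TPM in male brains and 4.70, 4.98 and 7.41 TPM in female brains, which overlapped. zp3b alone supplied 54.7%, 22.0% and 57.2% of the ZP TPM in male brains and 56.5%, 65.9% and 56.6% in female brains, against at most 3.88% in any gonad library. The largest fitted gaps for genes with more than 3 counts in brain were that of zp2l2 for ovary over female brain (15.66, against 4 counts, all in female brain library 1) and that of zp3f.1 for testes over male brain (11.89, against 10 counts). The fitted value of zp2l2 ran from 14.73 without ovary library 1 to 19.51 without female brain library 1, and its CPM ratio was 34485 with a 95% counting interval of 13469 to 126567. Without male brain library 2, zp3f.1 gave 13.81 and zp3f.2 gave 13.93, so that their order changed. For 2 genes female brain held 3 counts or fewer, so their fitted differences (15.72 for zp3f.1 and 13.03 for zp3d.2) rest on almost no brain reads. Their count ratios are given beside them. zp3f.1 had 126644 counts in ovaries and 1 in female brains, a CPM ratio of 53528 with an interval of 9607 to 2114249. zp3d.2 had 44808 counts in ovaries and 3 in female brains, a ratio of 6313 with an interval of 2160 to 30613. These intervals cover counting error only, and reads carried no molecular identifiers.

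In brain the members other than zp3b lay near the limit of detection. zpax1 had 1.69, 2.70 and 2.45 TPM in male brains and 1.31, 1.11 and 1.60 TPM in female brains, every male value lying above every female one, as for zp2l2. The share of all genes that separate in this way was not counted, and edgeR called 0 of 20893 genes between these brains. zp3f.1 had 0, 3.17 and 0.417 TPM in male brains and 0, 0 and 0.386 TPM in female brains. Most of its male level came from library 2. zpax4 had 0.923, 2.40 and 0.982 TPM in male brains and 0.999, 0.512 and 1.30 TPM in female brains, which overlapped. zp3c had 0.944, 3.22 and 0.605 TPM in male brains and 0.224, 0.428 and 0.676 TPM in female brains. zp3f.2 had 0.303, 3.12 and 0.148 TPM in male brains and 0.861, 0.337 and 1.58 TPM in female brains. Male library 2 was again the highest for both genes. zp3d.2 had 0.490, 0.471 and 0.0813 TPM in male brains and 0.0675, 0.188 and 0.147 TPM in female brains, which overlapped.

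The remaining members differed from brain by intermediate amounts. For ovary over female brain, zp3c gave 13.22, zpax4 12.21, zpax1 11.70 and zp3f.2 11.30 on the log2 scale. For testes over male brain, zp3f.2 gave 11.65, zpax4 11.62, zp3c 11.05, zpax1 10.92, zp2l2 10.67 and zp3d.2 10.33. Several of the testes values shifted without male brain library 2, to 11.98 for zp3c and 11.87 for zp2l2. Without male brain library 3, zp3d.2 gave 9.66 and zp3f.2 gave 10.96.

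Between the sexes' brains no call was made. All 8 ZP genes had positive values for male brain minus female brain, but edgeR called 0 of 8, as it called 0 of 20893 genes (0.0%), and 3 of 8 members and 564 genes had an unadjusted p under 0.05. DESeq2 called 10 genes and limma on log2 TPM called 5 or 8, none of them ZP genes. The 3 members were zp2l2 (4.32, unadjusted p = 0.0022), zp3f.1 (3.20, unadjusted p = 0.042) and zp3c (1.73, unadjusted p = 0.0398), each with an adjusted p of 1.0. The filter on low counts ran over all 14 AC libraries, gonads included. With the brain groups fitted alone, 2 of the 8 members passed it, so the others entered this test through their gonad counts. zp2l2 had 0.673, 3.49 and 0.683 TPM in male brains and 0.148, 0 and 0 TPM in female brains. Male brain library 2 had the highest value of the male brains for 6 of the 8 genes. Of the 12 oocyte markers, org (oogenesis-related) stood at 10.4 TPM in that library beside 0.30 to 2.61 TPM in the other 5 brain libraries. The sum of the 12 markers did not set that library apart, at 103 TPM beside 49.9 to 113 TPM in the other 5. Whether RNA from another sample contributed to male brain library 2 was not tested.

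Testes of the Lake Malawi species were compared to see whether the coat genes differ between closely related fishes. In CPM (counts divided by library size and scaled by TMM, not corrected for gene length), the 8 genes summed to 17528, 27576, 16097 and 32220 CPM in TM testes, to 32073 and 14323 CPM in MZ testes and to 19744, 20854, 11532 and 25545 CPM in AC testes. They took up 1.66% to 3.0% of counts in TM, 1.68% to 3.15% in MZ and 1.35% to 2.66% in AC. The species overlapped, so abundant ZP RNA was found in all 10 testes libraries. AC ovaries in the same table had 38947, 11739, 20819 and 20249 CPM, where the first value rests on the low TMM factor of ovary library 1. As a share of counts, ovaries had 1.26% to 2.42%, which overlapped with the testes of each species, while on total counts ovary library 1 had 24202 CPM and 4 testes libraries lay above it (MZ library 1, TM libraries 2 and 4 and AC library 4). edgeR called 0 of 8 genes in each of 3 comparisons, for TM minus AC (18.8% of 20705 features called, 0 members at an unadjusted p under 0.05), for MZ minus AC (8.9%, 1 member) and for TM minus MZ (10.2%, 1 member). DESeq2 called 0, 0 and 1.

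The member with the lowest p between species was again zp3d.2. It had 285, 309, 247 and 325 CPM in TM, 201 and 145 CPM in MZ and 247, 308, 200 and 337 CPM in AC testes. Both MZ libraries lay below every TM library, and AC testes library 3 lay level with the higher of the 2 MZ libraries. How many other features separate MZ from TM libraries in this way was not counted. zp3d.2 was 0.77 higher in TM than in MZ on the log2 scale (SE 0.24, unadjusted p = 0.0073, adjusted p = 0.0612), and MZ minus AC gave -0.65 (SE 0.23, unadjusted p = 0.0172, adjusted p = 0.109). The call depended on the tool and the scaling. For TM minus MZ, DESeq2 gave 0.79 (adjusted p = 0.0214), edgeR on total counts 0.64 (adjusted p = 0.0463), and edgeR without MZ library 1 gave 0.99 (adjusted p = 0.0408). For MZ minus AC, edgeR on total counts gave -0.68 (adjusted p = 0.0427).

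The other members overlapped between the species. zpax1, the most abundant member by counts, had 4797, 8526, 4552 and 9836 CPM in TM, 10617 and 4633 CPM in MZ and 5682, 6171, 3391 and 7432 CPM in AC testes. zp2l2 had 3018, 4451, 2675 and 5589 CPM in TM, 5442 and 2643 CPM in MZ and 3391, 3569, 1780 and 4319 CPM in AC testes. In both genes the higher MZ library exceeded the AC range and the lower MZ library lay inside it. zpax4 had 4113, 6370, 3781 and 7906 CPM in TM, 7086 and 2884 CPM in MZ and 4990, 4780, 2596 and 6140 CPM in AC testes. zp3f.1 had 1918, 2878, 1756 and 3652 CPM in TM, 3278 and 1495 CPM in MZ and 1857, 2080, 1189 and 2472 CPM in AC testes. TM library 4 was highest among TM for these 4 genes, and AC library 3 was lowest among AC. zp3f.2 had 1319, 2249, 1179 and 2003 CPM in TM, 2429 and 656 CPM in MZ and 1431, 1443, 936 and 1902 CPM in AC testes. Its MZ libraries held both the highest and the lowest value of the 10 testes libraries. zp3c had 1608, 2288, 1477 and 2384 CPM in TM, 2469 and 1514 CPM in MZ and 1781, 2089, 1167 and 2481 CPM in AC testes. zp3b had 470, 504, 430 and 525 CPM in TM, 551 and 353 CPM in MZ and 365, 415, 274 and 461 CPM in AC testes. Its TM minus AC difference of 0.37 had the lowest adjusted p of that comparison (0.209). TM minus AC gave positive values for all 8 genes, between 0.07 and 0.45, which on total counts turned negative for zp3c and zp3d.2.

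**Figure D4:**
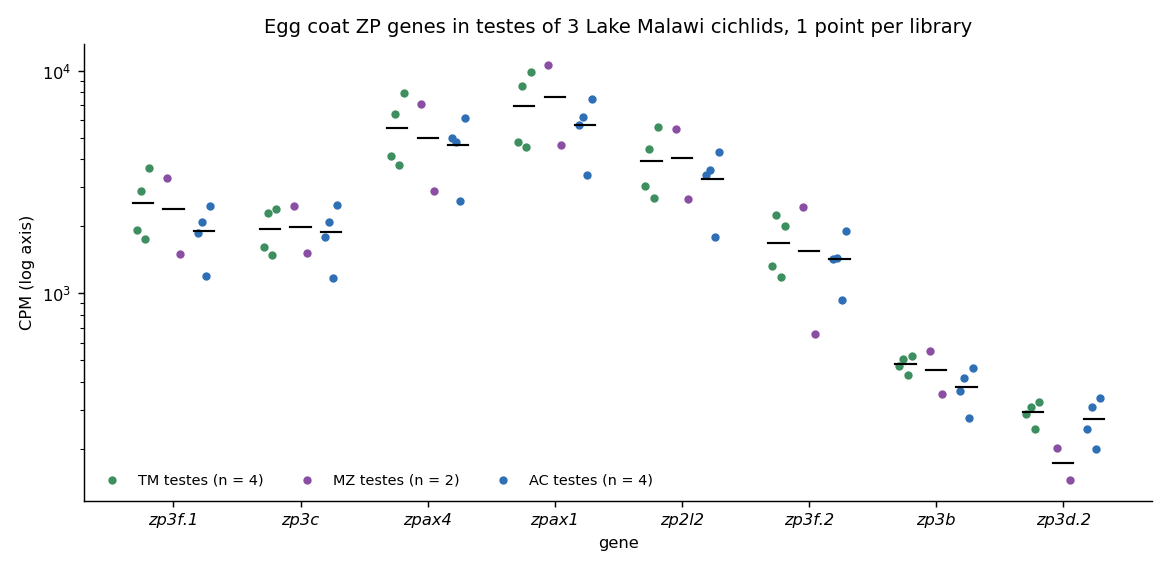
CPM of each ZP gene on a log axis in TM, MZ and AC testes, with 1 point per library and a bar at each group mean. TM and MZ points overlap for every gene except zp3d.2, where both MZ libraries (145 and 201 CPM) lie below the TM libraries (247 to 325 CPM).

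The testes libraries with the highest and the lowest ZP sums also lay at the ends of the marker sums. Of the 10 testes libraries, the 4 with the highest ZP sums (TM library 4, MZ library 1, TM library 2 and AC library 4) also had the 4 highest sums of oocyte markers, at 6922, 7094, 6124 and 6093 CPM. MZ library 2 and AC library 3 had the lowest ZP sums, the lowest oocyte sums (3949 and 3467 CPM) and the highest sums of male germ cell and sperm markers (2023 and 2469 CPM). Between these the orders differed, as AC library 1 had more ZP counts (19744 CPM) than TM libraries 1 and 3 (17528 and 16097 CPM) but a lower oocyte sum (4450 CPM, beside 5252 and 4957 CPM). On total counts the same 4 libraries were highest in both sums, while TM library 3 (16634 CPM) took the place of MZ library 2 (16756 CPM) as second lowest in ZP genes. The oestrogen-making follicle gene cyp19a1a stayed between 0 and 0.76 CPM in all testes libraries, beside 59.0 to 546 CPM in AC ovaries. The 5 follicle cell genes, cyp19a1a among them, summed to 54.1 to 115 CPM in testes and 134 to 730 CPM in AC ovaries. The part of these marker levels in the ZP values was not tested.

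**Figure D5:**
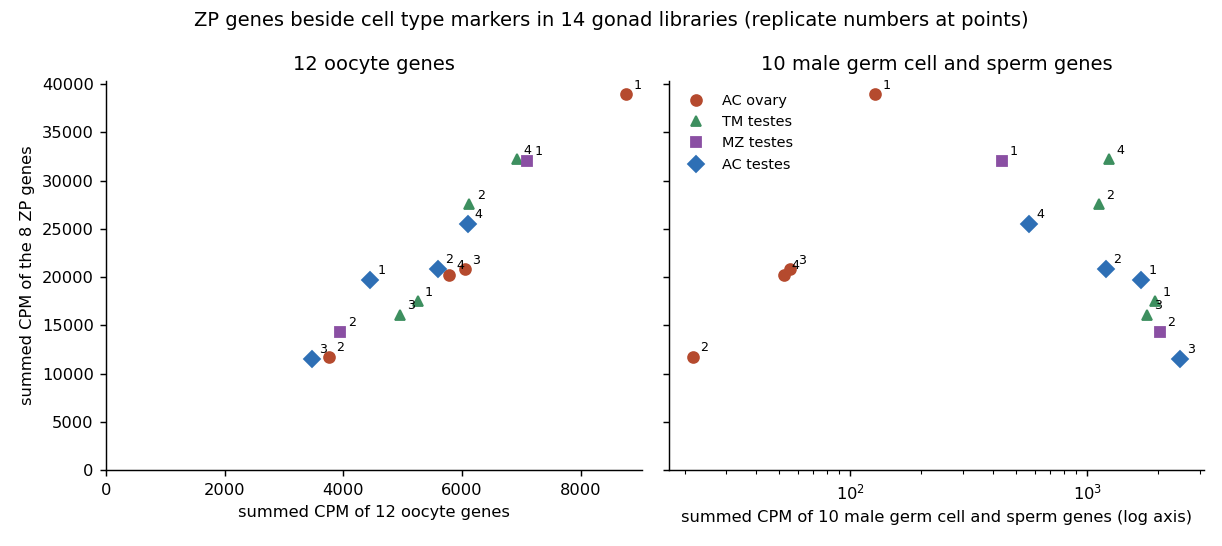
Summed CPM of the 8 ZP genes (vertical axis) against the summed CPM of 12 oocyte genes (left) and of 10 male germ cell and sperm genes (right, log axis) in the 14 gonad libraries, with replicate numbers at the points. Among testes AC library 3 is lowest in ZP and oocyte genes and highest in male germ cell genes at 2469 CPM, and the place of ovary library 1 at the upper right rests on its TMM factor, since on total counts its oocyte sum (5451 CPM) lies below those of ovary libraries 3 and 4 (6038 and 5705 CPM).

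In AC ovary against testes, 2 of 12 oocyte markers were higher, 1 was lower and 9 were not called (median 0.48), beside 14.2% of all genes higher and 16.2% lower, so that these counts lay near the background. gdf9, a growth factor that oocytes secrete, was higher in ovaries by 0.81 (adjusted p = 0.014), as was lhx8b by 2.37 (adjusted p = 0.0071), and ddx4, the germ line helicase Vasa, was lower (-1.08, adjusted p = 0.0046). All 10 markers of male germ cells and sperm were lower in ovaries. Of 5 follicle cell markers 3 were higher and 0 lower, and of 7 Sertoli and Leydig cell markers 2 were higher and 5 lower.

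Of the oocyte transcription factors that act on zona genes in mouse, 3 were found. figla, without which mouse oocytes make no zona, had 111, 373, 333 and 369 TPM in ovaries and 250, 221, 294 and 308 TPM in testes (0.54, adjusted p = 0.16). The overlap came from ovary library 1, and the other ovaries lay above every testes library. Without that library 39.8% of all genes did not overlap in TPM. In CPM it was the highest ovary, with 333 CPM beside 211 to 254 CPM in the other ovaries and 156 to 233 CPM in testes. Among the other factors, lhx8b was higher in ovaries, as above, and lhx8a gave 0.34 (adjusted p = 0.545). All 3 were higher in ovary than in female brain (32.4% of all genes were), and 2 of 3 were higher in testes than in male brain (32.5% of all genes were).

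Of genes for cutting, hardening and hatching of the coat, 10 were found, of which 7 were not called, 2 were higher and 1 was lower in ovaries than in testes (median 0.46). These counts lay near the background of 14.2% higher and 16.2% lower. Of the proprotein convertase genes, pcsk5b was higher in ovaries by 2.11 (adjusted p = 0.00035) and pcsk5a was lower (-3.94, adjusted p = 0.0012). furina, whose product is a convertase of the kind that cuts ZP proteins in mouse, had 9.76, 70.5, 68.9 and 102 TPM in ovaries and 53.5, 61.3, 61.2 and 51.5 TPM in testes (0.26, adjusted p = 0.68). Ovary library 1 was far below the other ovaries for this gene. The transglutaminase gene tgm2l, of a family that crosslinks proteins, was higher in ovaries by 1.35 (adjusted p = 0.024). Of 4 other ZP-domain genes tested (pkhd1l1, zpld1a, tecta and tgfbr3), edgeR called 0, and 1 (tgfbr3) had an unadjusted p under 0.05, with an adjusted p of 0.0953.

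Genes of the partners at the egg surface were fewer. On the sperm side, 3 genes were found. dcst1, whose product acts in sperm and egg fusion in mouse and zebrafish, was lower in ovaries (-2.26, adjusted p = 0.014), and dcst2 gave -1.22 (adjusted p = 0.083). spaca4l had 80.5, 166, 116 and 77.7 TPM in ovaries and 34.2, 20.3, 28.3 and 34.2 TPM in testes, with no overlap, and was higher in ovaries by 2.75 (adjusted p = 0.00029). It is named for a mammalian sperm protein whose zebrafish relative, Bouncer, sits on the egg. On the egg side, 3 genes were found, of which folr and cd9b are given. The third is left out, so the given genes do not stand for the list. folr, of the folate receptor family to which the mouse egg receptor Juno belongs, had 197, 141, 64.6 and 4.85 TPM in ovaries and 0.349, 0.211, 0 and 0.102 TPM in testes. cd9b, a relative of the mouse egg tetraspanin CD9, was higher in ovaries by 0.91 (adjusted p = 0.0085). Over all genes, edgeR called 14.2% higher in ovaries. The 3 genes summed to 364 to 587 TPM in ovaries and 244 to 351 TPM in testes. In male and female brains they summed to 288 to 322 TPM and 255 to 310 TPM, so this sum did not separate testes from brain.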

How the data were processed

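Poly(A)-enriched directional libraries were sequenced as paired reads. Per the labels and the study's methods, the authors trimmed reads with Trimmomatic 0.39. The expected counts of AC are those the authors obtained with Salmon 1.5.1, and the deposited length-scaled TPM, entered as a score because they are rescaled estimates, sum to 1000000 per library after 382 repeated entries of 27359 were dropped. The whole-number counts were deposited by the authors from STAR 2.5.4b alignments and TEtranscripts, with the curated transposon library and the AC genome for all species. Library totals were 18240974 to 22360242 expected counts in AC gonads, 6728056 to 19685433 in AC brains, and 20973400 to 26742599 counts in the gonad table of 14 libraries. Tables of the other species were not used here, since their IDs carry no names.

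Expected counts were rounded. Counts were filtered on low values and tested with edgeR 4.0.16 (quasi-likelihood test, TMM) in R 4.3.3 with Benjamini-Hochberg adjustment over all features and a threshold of 0.05. All AC groups shared a fit of the Salmon counts, AC ovary and testes shared a fit of the TEtranscripts counts, and the testes of the 3 species shared another. The fits were also run on simulated counts in which few genes differed, as many up as down. Ovary and testes differed in far more genes, so the simulation does not cover that setting. Alternatives were DESeq2 1.42.0, limma 3.58.1 on log2(TPM + 1) and log2(TPM + 0.1), total counts, no filter, the uncurated transposon table, a replicate block, fewer groups and leaving out each replicate. By the rule for named genes, all 8 members are given per library, being fewer than the 10 highest by ovary TPM that it allows, while genes of other lists were singled out after their values were seen. Members and lists were chosen with earlier results of these data known.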

Additional observations from a re-analysis of the deposited data

Results flagged for a closer look

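Among 58 groups of 4 libraries examined for a single library far from the others, 3 had one. Chance gives about 1 in 20 for independent groups. These groups reuse the same genes and libraries, so the count cannot be judged against that rate. All 3 were AC ovary library 1. It had 1662 CPM of zp3d.2, beside 301, 418 and 468 CPM in the other ovaries. This one depends on the TMM factor. On total counts the values were 1033, 323, 418 and 462 CPM. The gap of library 1 was then 0.805 of the range, under the critical value, so this outlier was lost. Total counts also brought in an outlier, zpax4 in ovary library 2. It had 2527 CPM there, beside 4758, 4703 and 4568 CPM, and the gap was 0.915 of the range, over the critical value. In ovary library 1, zp2l2 made up 21.1% of the ZP TPM, beside 11.2%, 12.03% and 12.5%, and zp3d.2 made up 5.24%, beside 1.88% to 2.41%. That library had 17686 genes above 0 TPM, beside 21466, 20968 and 20082 in ovary libraries 2 to 4. Ovary library 1 also had 12.3 TPM of the oocyte gene cpeb1b, which encodes a regulator of mRNA polyadenylation. The other ovaries had 540, 700 and 762 TPM of it, and testes had 666 to 1016 TPM. The part of library make-up or RNA quality in these values was not tested.

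The sex difference of zp2l2 was called as different between gonad and brain, but the call rested on few brain counts and on single libraries. Ovary minus testes exceeded female minus male brain by 4.99 on the log2 scale (SE 1.33, 95% CI 2.16 to 7.83, adjusted p = 0.0254 by edgeR). It was the only gene of the 8 that was called, against 12.4% of 20893 genes, so that this count lay near the background. The other 7 had adjusted p between 0.112 and 0.868. For zp2l2, edgeR called neither ovary minus testes (0.68, adjusted p = 0.445) nor male minus female brain (4.32) by itself. With a library left out, the gap of 4.99 ran from 3.80 (without male brain library 2, adjusted p = 0.0863) to 8.83 (without female brain library 1, adjusted p = 0.0445). The call was also lost without female brain library 2 (4.67, adjusted p = 0.0626) or 3 (4.58, adjusted p = 0.0658). These refits were chosen after seeing the data. As in the brain comparison, the filter on low counts ran over all AC libraries, gonads included, and 2 of the 8 members passed it with the brain groups fitted alone. zp2l2 had 4, 0 and 0 counts in female brain libraries 1 to 3 and 7, 42 and 16 in male brain libraries 1 to 3. The SE and p of its sex difference between gonad and brain come from a fit shared with the gonad libraries. The brain side of that difference rests on 65 counts in male brains and 4 in female brains, and male brain library 2 held most of the male level (3.49 TPM, beside 0.673 and 0.683). With a library left out, male minus female brain ran from 3.13 to 8.16 for zp2l2.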

How the results depend on the processing

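Of 802 gene values recomputed under an alternative, 718 kept direction and side of the threshold, 69 changed sign, 10 lost and 5 gained a call. Both comparisons with brain kept 8 of 8 genes throughout. For ovary minus testes on Salmon counts, 0 of 8 genes were called, in place of 1, under total counts (zp3d.2 0.85, adjusted p = 0.0790), with the replicate block (1.06, adjusted p = 0.105), with limma at either pseudocount (0.74, adjusted p = 0.0733 and 0.212) and with only the 2 groups fitted (1.28, adjusted p = 0.101), and 0 to 2 were called when a library was left out. The 2 were found without ovary library 2, where zp3b gave 0.63 (adjusted p = 0.0487). zp3d.2 kept its call with no filter and with DESeq2. MZ minus AC called 1 gene under total counts (0 otherwise), and TM minus MZ called 1 under total counts and under DESeq2 and 0 to 1 when a library was left out. Without the 2 most abundant members the summed TPM averaged 10603 in ovaries and 13602 in testes.

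Signs changed for small differences. In ovary minus testes on Salmon counts, zpax4 gave -0.35 (total counts), -0.011 (no filter), -0.40 (limma, both pseudocounts) and -0.057 (2 groups only), zpax1 gave 0.15 (DESeq2), zp2l2 -0.17 and zp3c -0.18 (limma, both). In male minus female brain, zp3f.2 gave -0.019 and -0.38 (limma, pseudocounts 1 and 0.1). In ovary minus testes on TEtranscripts counts, zpax4 gave -0.27 (total counts), -1.16e-06 (no filter), -0.070 (block) and -0.00339 (uncurated table). In TM minus AC under total counts, zp3c gave -0.10 and zp3d.2 -0.044. In MZ minus AC, zp3f.2 gave -0.044 (block). In TM minus MZ, zp3b gave -0.011 (total counts), zp2l2 gave 0.0074 (no filter) and 0.038 (block), and zp3c 0.0035 (no filter) and 0.017 (block). Over all genes the median of ovary minus testes was -0.22 on total counts and -0.25 or -0.51 with limma, beside -0.02.

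With a library left out, the ranges that crossed 0 in ovary minus testes on Salmon counts were -0.22 to 0.97 (zp2l2), -0.0038 to 0.66 (zp3c), -0.39 to 0.18 (zpax1) and -0.33 to 0.24 (zpax4). On TEtranscripts counts they were -0.23 to 0.73 (zp2l2), -0.018 to 0.62 (zp3c), -0.39 to 0.067 (zpax1) and -0.30 to 0.24 (zpax4). In male minus female brain zp3f.2 spanned -2.10 to 0.87. In TM minus AC they were -0.10 to 0.21 (zp3c) and -0.0066 to 0.22 (zp3d.2). In MZ minus AC they were -0.26 to 0.70 (zp2l2), -0.058 to 0.50 (zp3b), -0.27 to 0.36 (zp3c), -0.30 to 0.75 (zp3f.1), -1.08 to 0.73 (zp3f.2), -0.25 to 0.87 (zpax1) and -0.64 to 0.58 (zpax4). In TM minus MZ they were -0.41 to 0.56 (zp2l2), -0.13 to 0.43 (zp3b), -0.29 to 0.34 (zp3c), -0.30 to 0.76 (zp3f.1), -0.47 to 1.35 (zp3f.2), -0.55 to 0.57 (zpax1) and -0.29 to 0.93 (zpax4).

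Libraries that share a number did not deviate together (correlations between -0.163 and 0.129 over 19 pairs of AC, -0.210 and 0.261 over 8 pairs of testes), so the numbers were not taken as pairs. With the replicate block 5038 features were called in place of 6354 for ovary minus testes on Salmon counts, 2216 in place of 4292 on TEtranscripts counts, 2758 in place of 3893 for TM minus AC, 625 in place of 1842 for MZ minus AC and 856 in place of 2116 for TM minus MZ. Fitting only ovary and testes gave 3722 features, DESeq2 gave 6998, 3018 and 3443 for the TEtranscripts comparison, MZ minus AC and TM minus MZ, and leaving out a library gave 2459 to 7161 on TEtranscripts counts and 1159 to 4112 for TM minus MZ. Of calls in ovary minus testes, 46.6% were higher in ovaries, beside 33.5% under total counts and 21.1% or 19.5% with limma. In TM minus AC 47.2% were higher, beside 31.6% under total counts, and in TM minus MZ 36.9%, beside 25.1%. With MZ at 2 libraries, fits without either treat the lone library as varying like the other groups.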

Other observations

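Both counting methods of the authors gave ZP genes different totals in the same AC gonad libraries. TEtranscripts counts of zp3f.1 were 1.83 times its Salmon counts (median over libraries, range 1.79 to 2.2), those of zp3b 1.26 times (1.21 to 2.04) and those of zp3f.2 1.22 times (1.18 to 2.02), while zpax1 gave 0.995. For zp3f.1, zp3b and zp3f.2 the upper end of the range came from AC ovary library 1. In the other libraries these ratios were at most 1.86, 1.27 and 1.23. The median gene of 17437 gave 1.12. How reads shared between similar copies were counted was not tested.

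By counts, zpax1 made up 27.4%, 30.9%, 28.3% and 30.5% of ZP counts in TM, 33.1% and 32.3% in MZ and 28.8%, 29.6%, 29.4% and 29.1% in AC testes, so that both MZ libraries lay above the rest. zp3f.1 made up 10.9%, 10.4%, 10.9% and 11.3% in TM, 10.2% and 10.4% in MZ and 9.41%, 9.98%, 10.3% and 9.68% in AC testes, so that all TM libraries lay above all AC libraries. zp3d.2 made up 1.63%, 1.12%, 1.53% and 1.01% in TM, 0.628% and 1.01% in MZ and 1.25%, 1.47%, 1.74% and 1.32% in AC testes. These shares were looked at after the values were known and were not tested. How many other features separate these species in this way was not counted, and MZ had only 2 libraries.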
